A study of Mus musculus with 10 samples.

Results

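The mTOR pathway was followed in natural killer (NK) cells through 10 genes: Mtor, Rptor, Rictor, Tsc1, Tsc2, Rheb, Ddit4, Sesn1, Sesn3 and Tsc22d3. They were selected by gene symbol as pathway components, by a rule that uses no measured value but was drawn up with earlier results of these data known, and are 10 of the 18193 genes that have a probe set of their own on the Affymetrix MOE430_2 array. They carry 27 of the 34945 probe sets with 1 gene symbol. A probe set is a group of short oligonucleotides that together report 1 transcript signal. Mtor, Rptor and Tsc1 had 3 probe sets each, Rictor 5, Sesn1 and Tsc22d3 4 each, Sesn3 2, and Tsc2, Rheb and Ddit4 1 each.

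The series compared 3 groups. Resting NK cells (3 arrays) were sorted from the spleens of wild type C57Bl/6 mice as NK1.1-positive, CD3-negative cells at a purity above 99% and lysed straight after the sort. IL-15 NK cells (3 arrays) were sorted in the same way and then kept for 24 h with IL-15 (rmIL-15 in the labels) at 100 ng/mL. Bulk resting splenocytes (4 arrays) were lysed without a sort, and per the series' design text they are 2 biological samples with 2 chips each. The labels give no genotype or strain for the splenocytes, and no age for any group. RNA of both NK groups was labelled after a 2-cycle amplification and RNA of splenocytes after a 1-cycle amplification, so cell type and labelling procedure cannot be told apart in any comparison with splenocytes. No NK cells cultured without IL-15 were analysed here, so IL-15 and the 24 h in culture cannot be told apart either.

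mTOR is a protein kinase that matches growth to nutrients and growth factors, and it works in distinct complexes: mTORC1, which is built around Raptor and drives protein and lipid synthesis, and mTORC2, which is built around Rictor and phosphorylates AKT. The small GTPase Rheb switches mTORC1 on at the lysosome, and the TSC1-TSC2 complex switches Rheb off. Stress is relayed by small inhibitors: REDD1, encoded by Ddit4, acts through the TSC complex, and the sestrins act on the amino acid sensing arm. In NK cells IL-15 is known to activate mTOR signalling, which supports their growth and effector function. All measurements below are of transcripts, and mTOR activity itself is set by phosphorylation, which arrays do not read.

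Signals were scaled by the authors to a common mean, and every array had a mean of 1500.01 signal units after 2% of values were trimmed at each end. Signals under 179.85 units (the floor) were set to that value before log2 was taken. The share of signals above the floor was 57.8% to 61.7% for resting NK, 51.1% to 56.5% for IL-15 NK and 61.2% to 62.4% for splenocyte samples. The number of arrays limits the precision of each value below. All 8 NK markers on the array lay above the floor on every array, and their summed signal was 431031 to 542686 units in resting NK, 324810 to 367881 in IL-15 NK and 47159 to 63580 in splenocytes. Of 11 B-cell markers, 11, 11 and 5 lay above the floor on resting NK replicates 1, 2 and 3 and 2 to 5 on IL-15 NK arrays, with summed signals of 44330, 60894 and 12126 units in the former, 4810 to 6511 units in the latter and 378624 to 447137 in splenocytes. Cd79a, Ms4a1, Blnk and Pou2af1 were under the floor in each of the IL-15 NK samples. Ighm (3104, 5561 and 4629 units) and Cd22 (316, 223 and 360 units) were above it in each of them. Of 11 macrophage and neutrophil markers 8 to 9 lay above the floor in resting NK (summed signal 7559 to 29961 units) and 3 to 5 in IL-15 NK (1599 to 2166 units). Their sum in splenocytes was 275491 to 383021 units. Of 9 T-cell markers 5 to 7 lay above the floor in resting NK (15200 to 21533 units) and 5 in IL-15 NK (9832 to 10996 units). Their sum in splenocytes was 80298 to 95022 units. Much of the resting NK sum was Cd28, at 7379 to 15329 units against 8068 to 9873 in splenocytes. The median T-cell marker on resting NK arrays was at 2.25% to 4.02% of its splenocyte mean. Cd3d, Cd3g, Cd8a, Cd28 and Lat lay above the floor on each resting NK array, Cd3e, Cd8b1 and Cd5 on 1 each, and Cd4 on none. Of 8 erythroid and platelet markers, 3 to 5 lay above it in resting NK and 1 to 2 in IL-15 NK arrays. The ratio of 3-prime to 5-prime signal of the Gapdh control spanned 5.88 to 9.54 for resting NK, 2.90 to 3.81 for IL-15 NK and at most 1.39 for splenocyte arrays, a sign of RNA or labelling quality that moved with the groups. The part of these differences in the results below was not tested beyond the values given beside them.

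How the pathway transcripts differed between activated and resting cells was read from the 6 NK arrays. Rictor, Tsc1, Sesn1 and Tsc22d3 fell, none of the 10 genes rose, and Mtor, Rptor, Tsc2, Rheb, Ddit4 and Sesn3 did not pass the test. Of the 10 genes 4 were lower and 0 higher, while among all 11433 genes tested 26.3% passed at an adjusted p under 0.05 in limma, 12.1% lower and 14.2% higher. At an unadjusted p under 0.05 the counts were also 4 lower and 0 higher, where 37.8% of all genes tested had such a p in either direction, so 4 of 10 is near that share. The median log2 difference of the 10 genes was -0.34, and that of all genes tested was -0.09. In 5 of the 10 genes every IL-15 NK array lay below every resting NK array (Mtor, Rictor, Tsc1, Sesn1 and Tsc22d3), a pattern found in 21.6% of all genes tested, while 42.2% of them had groups that did not overlap in either direction. With resting NK replicates 1 and 2, the arrays with the higher B-cell marker signal, both left out (chosen after seeing the data), the same 4 genes had an adjusted p under 0.05 (limma, 0.0055 for Rictor, 0.012 for Tsc1, 0.034 for Sesn1 and 0.011 for Tsc22d3), where 23.9% of all genes did. This assumes that the lone resting array varies like the others, and that array, replicate 3, had the highest summed macrophage and neutrophil signal (29961 units, against 7559 and 21568 on replicates 1 and 2).

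**Figure D1:**
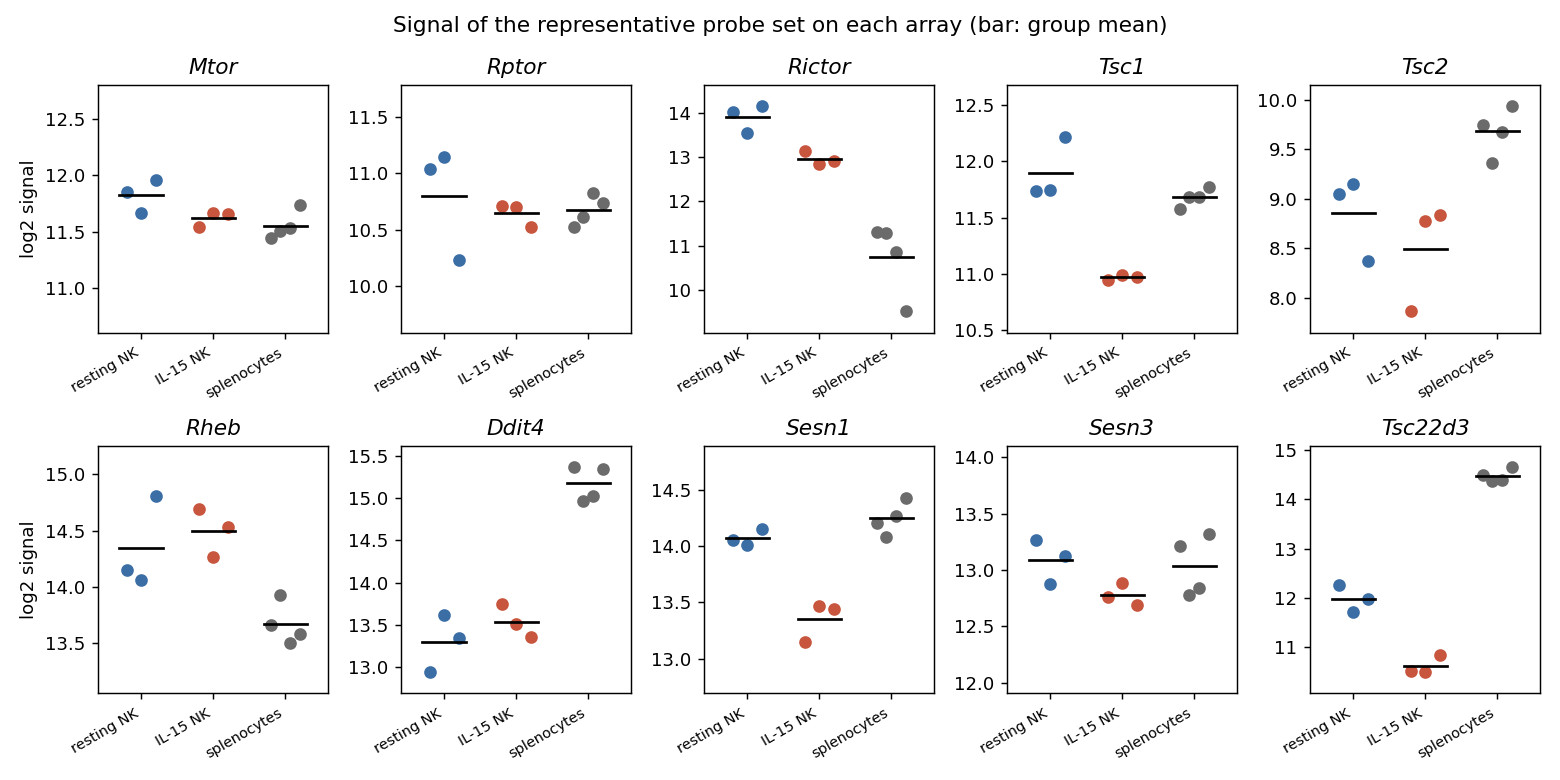
Log2 signal of the brightest probe set of each gene (y axis; each panel has its own range) on the 3 resting NK, 3 IL-15 NK and 4 splenocyte arrays, with bars at group means. Rictor, Tsc1, Sesn1 and Tsc22d3 lie lower on every IL-15 NK array than on any resting NK array, and Ddit4 lies higher on every splenocyte array than on any NK array.

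Mtor encodes the kinase shared by both complexes. Its brightest probe set read 3687, 3240 and 3983 signal units on resting NK replicates 1, 2 and 3, 2978, 3237 and 3225 on the IL-15 NK replicates and 2786, 2904, 2953 and 3408 on the splenocyte chips. The IL-15 NK values lay just under the resting ones without overlap, and the splenocyte chips overlapped both NK groups. After IL-15 it differed by -0.20, with a 95% confidence interval of -0.63 to 0.22, and did not pass (limma adjusted p = 0.47). Its other probe sets were dim. Among these, 1436267_a_at read 369 to 470 units in resting NK and 258 to 284 in IL-15 NK cells against 386 to 726 in splenocytes, and was lower in IL-15 NK than in splenocytes by a log2 difference of -1.05 (limma adjusted p = 0.010 over all probe sets). The brightest probe set of Mtor thus passed in no comparison, and a dim one placed IL-15 NK cells below splenocytes.

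Rptor, which encodes Raptor, the scaffold that brings substrates to mTORC1, gave 2099, 2259 and 1198 units on the resting NK replicates. It gave 1677, 1662 and 1470 units on the IL-15 NK replicates and 1474, 1569, 1816 and 1701 on the splenocyte chips. Resting NK replicate 3 lay below all other arrays and replicates 1 and 2 above all of them, so the groups overlapped. None of the 3 comparisons passed (limma adjusted p = 0.73, 0.76 and 0.94), and the difference after IL-15, -0.16 with an interval of -0.79 to 0.47, was 0.01 without resting NK replicate 2. Both other probe sets of Rptor were at or near the floor on most arrays.

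Rictor, the scaffold of mTORC2, showed large differences that depended on the probe set. By its brightest probe set, 1429810_at, it read 16507, 11836 and 18031 units on the resting NK replicates and 8958, 7382 and 7689 on the IL-15 NK replicates. The splenocyte chips read 2553, 2490, 1844 and 735 units, so the 3 groups did not overlap and splenocyte chip 4 was the lowest. Rictor fell 1.91-fold after IL-15 (-0.93 ± 0.20 SE on the log2 scale over 3 against 3 arrays, limma adjusted p = 0.0069). Without the filter on dim genes it no longer passed (limma adjusted p = 0.055). It was 8.88-fold higher in resting NK cells than in splenocytes (limma adjusted p = 0.00012) and 4.66-fold higher in IL-15 NK cells (limma adjusted p = 0.00066). In bulk samples, fewer cells of a type and less RNA per cell cannot be told apart.

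The other Rictor probe sets gave another picture of the comparison with splenocytes. Probe set 1435698_at read 5372, 2445 and 7413 units on resting NK, 4812, 4862 and 5135 on IL-15 NK and 4006, 3872, 4157 and 5858 on splenocyte arrays, and passed in none of the 3 comparisons. Probe set 1441753_at was higher in resting NK than in splenocytes by 0.89 and fell by 1.12 on the log2 scale after IL-15 (limma adjusted p = 0.018 and 0.0079 over all probe sets). Probe set 1453775_at also fell after IL-15, by 1.60, did not pass between resting NK and splenocytes, and was lower in IL-15 NK cells than in splenocytes by a log2 difference of -1.62. Rictor was thus lower after IL-15 by 3 of the 5 probe sets. It was higher than in splenocytes by the brightest in both NK groups and by 1441753_at in resting NK cells. The dimmest, 1427583_at, did not pass after IL-15 and was at least 2.13-fold lower in IL-15 NK cells than in splenocytes (limma adjusted p = 0.036 over all probe sets). As a mean over its 5 probe sets, Rictor differed between IL-15 NK and splenocytes by -0.11 (limma adjusted p = 0.67) in place of 2.22, and between resting NK and splenocytes by 0.73 (limma adjusted p = 0.016).

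Among the genes of the TSC-Rheb switch, Tsc1 fell after IL-15 while Tsc2 and Rheb did not pass. Tsc1 encodes hamartin, which stabilises the TSC complex. It read 3403, 3434 and 4744 units on the resting NK replicates, 1969, 2036 and 2006 on the IL-15 NK replicates and 3059, 3294, 3288 and 3488 on the splenocyte chips. The IL-15 NK arrays were alike and lay below all others, while resting NK and splenocyte arrays overlapped. The fall was 1.90-fold (-0.93 ± 0.21 SE on the log2 scale over 3 against 3 arrays, limma adjusted p = 0.0099), and IL-15 NK cells were also 1.64-fold below splenocytes (limma adjusted p = 0.016). Probe set 1439989_at read 590 to 615 units in resting NK and 388 to 418 in IL-15 NK cells against 313 to 345 in splenocytes. Between the NK groups these values did not overlap and did not pass (log2 difference -0.61, limma adjusted p = 0.13 over all probe sets), and resting NK lay above splenocytes by 0.90 (limma adjusted p = 0.011 over all probe sets). IL-15 NK differed from splenocytes by 0.29 with this probe set, which did not pass (limma adjusted p = 0.30 over all probe sets). As a mean over its 3 probe sets, Tsc1 differed by -0.47 after IL-15 (limma adjusted p = 0.075) and by -0.06 between IL-15 NK and splenocytes (limma adjusted p = 0.77).

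Tsc2 encodes tuberin, the subunit that turns Rheb off by speeding its GTP hydrolysis. It was dim, with 528, 567 and 332 units on the resting NK replicates, 233, 438 and 457 on the IL-15 NK replicates and 859, 658, 819 and 977 on the splenocyte chips. Every splenocyte chip lay above every NK array, and the NK groups overlapped. Tsc2 was 2.28-fold lower in IL-15 NK cells than in splenocytes (-1.19 ± 0.37 SE on the log2 scale, limma adjusted p = 0.030). This did not pass without IL-15 NK replicate 1 (limma adjusted p = 0.071), after quantile normalization (0.20) or with no filter on dim genes (0.088). Resting NK cells differed from splenocytes by -0.82 (interval -1.67 to 0.03, limma adjusted p = 0.12), and IL-15 NK from resting NK by -0.36 (limma adjusted p = 0.49).

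Rheb, the GTPase that activates mTORC1, was bright in all groups. It read 18256, 17099 and 28737 units on the resting NK replicates, 26446, 19727 and 23741 on the IL-15 NK replicates and 13008, 15599, 11588 and 12277 on the splenocyte chips. The NK groups overlapped, and each NK array lay above each splenocyte chip. Rheb was 1.78-fold higher in IL-15 NK cells than in splenocytes (0.83 ± 0.24 SE on the log2 scale, limma adjusted p = 0.023), which did not pass without IL-15 NK replicate 1 (0.069), without IL-15 NK replicate 3 (0.060), after quantile normalization (0.063) or with no filter on dim genes (0.072). The difference between resting NK and splenocytes, 0.67 (interval 0.12 to 1.23, not adjusted for the number of genes), did not pass (limma adjusted p = 0.057). It passed without resting NK replicate 2 (0.030) and without splenocyte chip 2 (0.036). IL-15 NK and resting NK differed by 0.16 (interval -0.34 to 0.65, limma adjusted p = 0.65), and this difference was -0.31 with resting NK replicates 1 and 2 both left out.

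**Figure D2:**
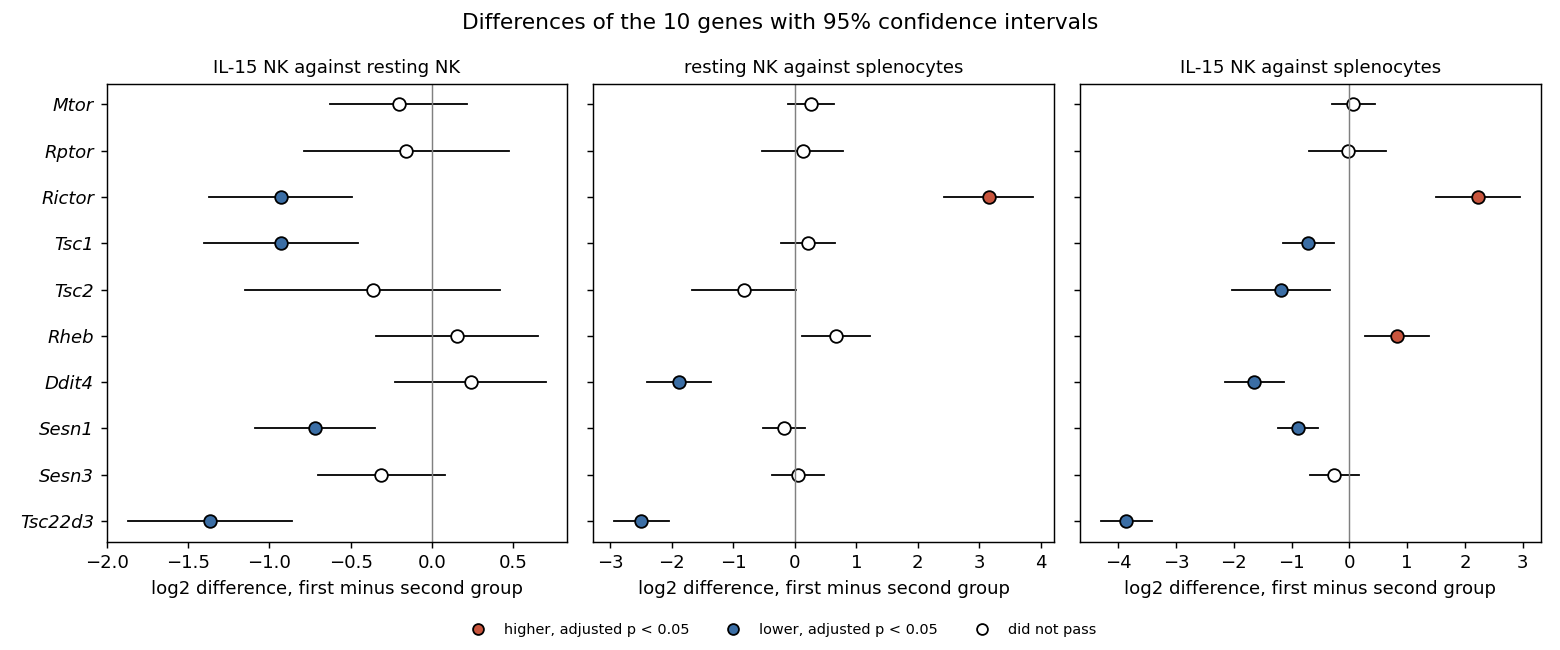
Log2 differences (x axis, first minus second named group) of the 10 genes in the 3 comparisons, with 95% confidence intervals as lines and filled points for an adjusted p under 0.05. After IL-15 all filled points lie left of 0, and in both comparisons with splenocytes Ddit4 and Tsc22d3 lie far to the left and Rictor far to the right.

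The stress inhibitors behaved unlike each other. The sequences before the starts of Ddit4, Sesn1 and Tsc22d3 are shown because Sesn1 and Tsc22d3 fell together after IL-15 while Ddit4 did not pass. Sesn3 did not pass either, and its sequence is not printed. The 250 bases upstream of each start that RefSeq lists on GRCm38.p6 are printed 5′ to 3′ on the gene's strand, with 1 start for Ddit4, 2 for Sesn1 and 3 for Tsc22d3. Capitals mark matches, on either strand, to 7 motifs: the FOXO element GTAAACA, the glucocorticoid response palindrome, the E-box CACGTG, the hypoxia response core ACGTG, which lies within the E-box, the cAMP response element TGACGTCA, the ATF4 element TGATGCAA and the CCAAT box CCAAT, which reads ATTGG on the other strand.
Ddit4, chr10:59951771-59952020, minus strand: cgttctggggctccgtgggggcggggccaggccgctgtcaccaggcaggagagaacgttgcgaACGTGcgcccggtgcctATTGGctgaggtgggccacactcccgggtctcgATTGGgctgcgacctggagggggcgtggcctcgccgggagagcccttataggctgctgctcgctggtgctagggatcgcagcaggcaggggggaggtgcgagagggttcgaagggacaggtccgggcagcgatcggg
Sesn1 first listed start, chr10:41810324-41810573, plus strand: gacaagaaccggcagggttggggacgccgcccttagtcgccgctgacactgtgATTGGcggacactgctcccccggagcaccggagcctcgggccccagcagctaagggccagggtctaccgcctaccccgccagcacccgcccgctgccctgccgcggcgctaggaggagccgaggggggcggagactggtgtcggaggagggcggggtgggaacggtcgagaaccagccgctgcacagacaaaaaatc
Sesn1 second listed start, chr10:41887189-41887438, plus strand: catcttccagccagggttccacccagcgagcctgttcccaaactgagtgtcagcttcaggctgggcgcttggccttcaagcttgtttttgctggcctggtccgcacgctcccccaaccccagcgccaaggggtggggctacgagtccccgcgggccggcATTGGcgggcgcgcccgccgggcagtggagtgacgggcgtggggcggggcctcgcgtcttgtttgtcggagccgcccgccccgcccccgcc
Tsc22d3 first listed start, chrX:140542669-140542918, minus strand: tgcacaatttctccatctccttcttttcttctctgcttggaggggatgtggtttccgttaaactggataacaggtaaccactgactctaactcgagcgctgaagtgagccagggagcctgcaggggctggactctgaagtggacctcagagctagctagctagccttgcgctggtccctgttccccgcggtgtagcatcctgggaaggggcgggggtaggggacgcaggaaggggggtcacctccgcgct
Tsc22d3 second listed start, chrX:140600523-140600772, minus strand: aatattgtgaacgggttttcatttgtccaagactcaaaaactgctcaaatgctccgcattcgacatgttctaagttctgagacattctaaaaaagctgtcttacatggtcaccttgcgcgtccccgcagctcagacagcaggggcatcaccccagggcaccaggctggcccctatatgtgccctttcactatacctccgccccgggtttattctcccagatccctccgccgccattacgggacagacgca
Tsc22d3 last listed start, chrX:140548572-140548821, minus strand: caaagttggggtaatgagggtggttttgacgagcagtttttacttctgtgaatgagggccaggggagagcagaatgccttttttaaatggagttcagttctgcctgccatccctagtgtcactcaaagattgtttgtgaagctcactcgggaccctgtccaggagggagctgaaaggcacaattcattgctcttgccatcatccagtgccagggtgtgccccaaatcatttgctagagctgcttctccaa
The Ddit4 window held the hypoxia response core once, found in 16.6% of the 32851 promoter windows of this length, and the CCAAT box at 2 places. Each Sesn1 window held 1 CCAAT box, a motif found in 33.8% of all windows, and the Tsc22d3 windows held no match to these letters. None of the 13 windows of the 10 genes held the FOXO element (3.17% of all windows) or the glucocorticoid palindrome (0.00913%), and a window of this size says nothing of sites further away. The E-box, found in 6.02% of all windows, was present in that of Rheb. The hypoxia response core was also present in the windows of Rptor and Rheb, and the CCAAT box in those of Mtor, Rictor and Sesn3. The cAMP response element and the ATF4 element, found in 1.55% and 0.791% of all windows, had no match in the 13.

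Ddit4 encodes REDD1, which is induced by hypoxia, glucocorticoids and other stress and restrains mTORC1 through the TSC complex. Its probe set read 7844, 12542 and 10355 units on the resting NK replicates, 13780, 11620 and 10458 on the IL-15 NK replicates and 42375, 32153, 33471 and 41654 on the splenocyte chips. The NK groups overlapped, and every splenocyte chip lay far above every NK array. Ddit4 was 3.69-fold lower in resting NK cells than in splenocytes (log2 value -1.88 ± 0.22 SE, limma adjusted p = 0.00034) and 3.13-fold lower in IL-15 NK cells (-1.64 ± 0.22 SE, limma adjusted p = 0.00059). After IL-15 it differed by 0.24 with an interval of -0.23 to 0.70, which did not pass (limma adjusted p = 0.44). The order of levels was splenocytes above both NK groups, whose difference from each other was within their spread.

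Sesn1 encodes sestrin 1, a stress-induced inhibitor of mTORC1 and a known target of p53 and FOXO factors. By its brightest probe set, 1433711_s_at, it read 16997, 16536 and 18189 units on the resting NK replicates, 9108, 11328 and 11125 on the IL-15 NK replicates and 18888, 17317, 19733 and 22098 on the splenocyte chips. The IL-15 NK arrays lay below all others, and resting NK overlapped with splenocytes. Sesn1 fell 1.65-fold after IL-15 (-0.72 ± 0.17 SE on the log2 scale over 3 against 3 arrays, limma adjusted p = 0.010) and was 1.86-fold lower in IL-15 NK cells than in splenocytes (limma adjusted p = 0.0017). The latter difference, -0.89 by this probe set, was -0.88, -2.50 and -3.22 by 1438931_s_at, 1454699_at and 1444376_at, each of which passed, and -1.87 as a mean over the 4 probe sets (limma adjusted p = 4.1e-05). All 4 of its probe sets fell after IL-15, by log2 values of -0.72 to -2.10 (limma, adjusted p over all probe sets between 0.0019 and 0.017). The dimmest, 1444376_at, went from 1297, 1634 and 1024 units to 236, 465 and 253.

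Between resting NK cells and splenocytes the Sesn1 probe sets parted. Probe sets 1433711_s_at and 1438931_s_at did not pass, with differences of -0.17 and -0.05 (limma adjusted p = 0.43 and 0.86 over all probe sets). Probe sets 1454699_at and 1444376_at were lower in resting NK cells by log2 differences of -1.65 and -1.12 (limma adjusted p = 0.00050 and 0.042 over all probe sets). The former read 3456, 2987 and 4243 units on resting NK, 1752, 2146 and 1965 on IL-15 NK and 10469, 8424, 11146 and 15076 on splenocyte arrays, so its 3 groups were separate. As a mean over its 4 probe sets, Sesn1 was lower in resting NK cells than in splenocytes by a log2 difference of -0.75 (limma adjusted p = 0.0048).

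Sesn3 encodes sestrin 3, a FOXO-induced member of the same family. Its brightest probe set, 1449303_at, read 9832, 7528 and 8912 units on the resting NK replicates, 6919, 7563 and 6600 on the IL-15 NK replicates and 9493, 7029, 7349 and 10207 on the splenocyte chips. All 3 groups overlapped, and the gene passed in no comparison, with a log2 difference of -0.31 (interval -0.70 to 0.08, limma adjusted p = 0.22) after IL-15. The second probe set, 1453313_at, read 4009, 2468 and 3417 units on resting NK, 5307, 3546 and 3060 on IL-15 NK and 13881, 15304, 12838 and 4706 on splenocyte arrays. It was lower than in splenocytes in both resting NK and IL-15 NK cells, by log2 differences of -1.72 and -1.46 (limma adjusted p = 0.0041 and 0.0083 over all probe sets), although splenocyte chip 4 lay within the IL-15 NK range. As a mean over both probe sets, Sesn3 was lower than in splenocytes by -0.83 in resting NK (limma adjusted p = 0.017) and by -0.86 in IL-15 NK cells (limma adjusted p = 0.013).

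Tsc22d3 had the largest fall after IL-15 among the 10 genes by their brightest probe sets, while by means over probe sets Sesn1 fell more (-1.12 against -1.03). It encodes GILZ, the glucocorticoid-induced leucine zipper protein, an anti-inflammatory factor of lymphocytes. Its symbol refers to the TSC-22 protein family and not to the tuberous sclerosis genes Tsc1 and Tsc2, and GILZ is not a subunit of an mTOR complex. Its brightest probe set, 1420772_a_at, read 4886, 3362 and 4056 units on the resting NK replicates, 1472, 1444 and 1825 on the IL-15 NK replicates and 23030, 21245, 21436 and 25707 on the splenocyte chips. The 3 groups were fully separate, with splenocytes highest and IL-15 NK cells lowest. Tsc22d3 fell 2.58-fold after IL-15 (-1.37 ± 0.23 SE on the log2 scale over 3 against 3 arrays, limma adjusted p = 0.0018). It was 5.62-fold lower in resting NK cells than in splenocytes (-2.49 ± 0.19 SE, limma adjusted p = 4.2e-05) and 14.5-fold lower in IL-15 NK cells (-3.86 ± 0.19 SE, limma adjusted p = 5.0e-06). As a mean over its 4 probe sets the differences from splenocytes were smaller, -1.39 in resting NK and -2.42 in IL-15 NK cells (limma adjusted p = 0.00074 and 3.9e-05).

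Since Tsc22d3 was bright in splenocytes, B-cell marker signal on the resting arrays is given beside it. Probe set 1425281_a_at read 3714, 7816 and 1401 units on resting NK replicates 1, 2 and 3, an order shared with the summed B-cell markers of 44330, 60894 and 12126 units, and it read 516, 836 and 777 units in IL-15 NK cells against 18021 to 20950 in splenocytes. This probe set fell by 2.31 on the log2 scale after IL-15 (limma adjusted p = 0.0086 over all probe sets), and differed from splenocytes by -2.50 in resting NK and by -4.81 in IL-15 NK cells (limma adjusted p = 0.012 and 0.00044 over all probe sets). The brightest probe set read highest on replicate 1 and lowest on replicate 2, and its fall after IL-15 was 1.37 on the log2 scale with resting NK replicates 1 and 2 both left out. The part of other cell types in these values was not tested. Probe set 1425557_x_at passed in none of the 3 comparisons, and 1444365_at was near the floor.

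**Figure D3:**
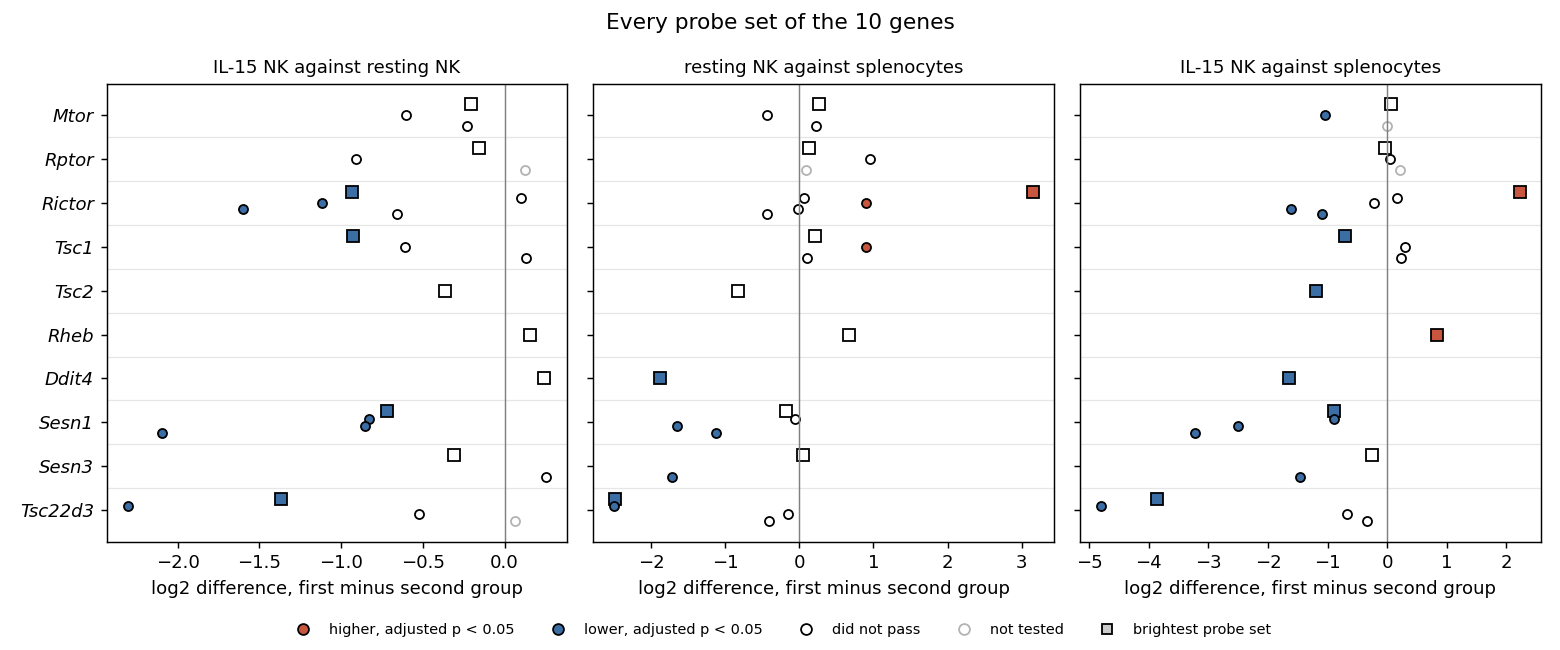
Log2 differences (x axis, first minus second named group) of all 27 probe sets of the 10 genes, with squares for the brightest probe set of each gene, filled symbols for an adjusted p under 0.05 over all probe sets and grey outlines for probe sets that were not tested. The 4 Sesn1 probe sets all lie left of 0 after IL-15, while the 5 Rictor probe sets spread from -1.62 to 2.22 between IL-15 NK cells and splenocytes.

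Over all probe sets, each tested singly, 10 of the 25 tested of these genes fell after IL-15 and 0 rose, where 23.9% of all 20980 probe sets tested passed, 11.6% lower and 12.2% higher. Against splenocytes 3 of 26 were higher and 6 lower in resting NK (38.1% of all probe sets passed, 15% higher and 23.1% lower). In IL-15 NK cells 2 of 25 were higher and 13 lower (42.4% of all, 17.1% higher and 25.2% lower). Of the 7 genes with more than 1 tested probe set, 4 had the same call from each of them after IL-15 (Mtor, Rptor, Sesn1 and Sesn3). Only for Sesn1 was that call a change. For Mtor, Rptor and Sesn3 no probe set passed, and the Sesn3 ones differed in sign (-0.31 and 0.26). In resting NK against splenocytes 2 of the 7 had the same call (Mtor and Rptor). No probe set of either passed there, and those of Mtor differed in sign (0.27 and -0.44 for the brightest and 1436267_a_at). In IL-15 NK against splenocytes 2 did, with no Rptor probe set passing and all of Sesn1 lower.

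Comparing resting NK cells with splenocytes asks which of these transcripts set NK cells apart before activation. Of the 10 genes, Rictor was higher and Ddit4 and Tsc22d3 were lower, and 7 did not pass. Among all 12938 genes tested, 38.6% passed in either direction, with 17.1% higher and 21.5% lower in resting NK cells, so 3 of 10 is no larger than the share of all genes. The groups did not overlap for 5 of the 10 genes, and for 49.7% of all genes. With the 4 chips taken as separate samples 5 of the 10 genes passed, where 49.1% of all genes did, as Rheb (limma adjusted p = 0.0090) and Tsc2 (0.033) were added. With means over all probe sets 5 passed, with Sesn1 and Sesn3 added, where 35.5% of all genes did. With resting NK replicates 1 and 2 both left out the count was 4, with Rheb added (limma adjusted p = 0.012), where 35.9% of all genes passed.

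In IL-15 NK cells against splenocytes, which shares its arrays with both other comparisons, Rictor and Rheb were higher and Tsc1, Tsc2, Ddit4, Sesn1 and Tsc22d3 were lower. These are 7 of 10, where 44.3% of all 12465 genes tested passed, 20.8% higher and 23.5% lower. The groups did not overlap for the same 7 genes, and for 57.6% of all genes. Mtor and Rptor did not pass, with log2 differences of 0.07 (interval -0.31 to 0.44) and -0.03 (interval -0.70 to 0.64). The inhibitors that did pass, Tsc1, Tsc2, Ddit4 and Sesn1, were all lower in IL-15 NK cells, while Sesn3 did not pass by its brightest probe set (limma adjusted p = 0.28). After quantile normalization 5 of the 10 genes passed, as Tsc2 and Rheb were lost, where 42.3% of all genes passed, and that scaling moved the median difference of all genes from -0.10 to 0.11. With means over all probe sets 6 of the 10 genes passed, where 41.6% of all genes did. Rictor (limma adjusted p = 0.67) and Tsc1 (0.77) were then lost and Sesn3 (0.013) was added.

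The other genes of the pathway were counted in lists that leave out the 10 genes. Among all genes tested, 14.2% rose and 12.1% fell after IL-15. Against splenocytes 17.1% of all genes were higher and 21.5% lower in resting NK, and 20.8% higher and 23.5% lower in IL-15 NK cells. Of 9 tested partners and assembly factors of the mTOR complexes, 1 rose and 0 fell after IL-15, and their median difference was 0.47. The gene that rose was Telo2, which encodes a co-chaperone that helps assemble mTOR and related kinases (1.25, limma adjusted p = 0.0055). The shared subunit gene Mlst8 did not pass, at 0.68 (limma adjusted p = 0.11). Against splenocytes Prr5l, which encodes an mTORC2-associated protein, was 13.9-fold higher in resting NK and 11.6-fold higher in IL-15 NK cells (limma adjusted p = 1.6e-05 and 2.0e-05). Akt1s1, which encodes the mTORC1 inhibitor PRAS40, was lower by log2 differences of -1.26 in resting NK and -1.31 in IL-15 NK cells (limma adjusted p = 0.010 and 0.0070). Deptor, an inhibitor of both complexes, was lower in resting NK cells by a log2 difference of -0.86 (limma adjusted p = 0.013). In IL-15 NK cells it was lower by at least 2.91-fold (limma adjusted p = 0.00056), with 1 of their 3 arrays above the floor. In these comparisons 2 of the 9 were higher and 2 lower in resting NK, and 4 higher and 2 lower in IL-15 NK cells.

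Of 6 tested relatives of the TSC, Rheb, sestrin and GILZ genes, 2 rose and none fell after IL-15, where 26.3% of all genes passed. Tbc1d7, the gene of a further TSC complex subunit, rose at least 2.86-fold (limma adjusted p = 0.0049), with 2 of 3 resting arrays above the floor. Rhebl1, a relative of Rheb, rose by 0.89 (limma adjusted p = 0.029). Sesn2, the other sestrin gene, was at least 3.83-fold higher in resting NK cells than in splenocytes, where 3 of 4 chips lay above the floor (limma adjusted p = 0.0056), and differed by -0.18 after IL-15 without passing. Of 7 relatives tested against splenocytes, 2 were higher and none lower in either NK group, where 38.6% (resting) and 44.3% (IL-15) of all genes passed. Tsc22d2, a GILZ relative, was the other one in resting NK cells (0.71, limma adjusted p = 0.0055), and Tbc1d7 in IL-15 NK cells.

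Of 21 tested genes of the Rag GTPases, Ragulator and GATOR complexes, which carry the amino acid signal to mTORC1, 3 rose and 2 fell after IL-15, at a median of 0.01. These 5 are 23.8% of the list, near the 26.3% of all genes that passed. Rraga, a Rag GTPase, rose by 0.90 and Sec13, a subunit of GATOR2 and of the nuclear pore, by 0.93 (limma adjusted p = 0.040 and 0.021). Against splenocytes 5 of 22 were higher and 8 lower in resting NK, and 4 higher and 6 lower in IL-15 NK cells. Of all genes, 38.6% and 44.3% passed in these comparisons. Rragd, another Rag GTPase, was under the floor on all NK arrays and at least 3.59-fold lower in each NK group than in splenocytes, Fnip2, a partner of folliculin, was lower in resting NK by a log2 difference of -1.60, and Slc38a9, the lysosomal arginine sensor, was lower in IL-15 NK cells by -1.71.

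Of 14 PI3K and AKT genes, which act upstream, 1 rose and 2 fell after IL-15, with a median of -0.18, where 26.3% of all genes passed. Akt1 rose by 0.99 (limma adjusted p = 0.0066), and Pik3r5, a regulatory subunit of PI3K gamma, fell by 0.95 with overlapping groups (limma adjusted p = 0.033). Against splenocytes 6 were higher and 1 lower in resting NK, and 6 higher and 3 lower in IL-15 NK cells. Of all genes, 38.6% and 44.3% passed in these comparisons. The catalytic subunit gene Pik3cd was 12.2-fold higher in resting NK and 16.5-fold higher in IL-15 NK cells (limma adjusted p = 0.029 and 0.017), and Pik3cb was higher in resting NK by 1.86. Inpp4b, a lipid phosphatase, was lower in IL-15 NK cells by -1.56 with overlapping groups. Of 10 AMPK and LKB1 genes, whose kinases restrain mTORC1 when energy is short, 0 passed after IL-15 at an adjusted p under 0.05 in limma and 1 at an unadjusted p under 0.05, at a median of -0.16. Among all genes 37.8% had an unadjusted p under 0.05. The brightest member of the AMPK and LKB1 list, Cab39, differed by 0.02 (limma adjusted p = 0.96). Against splenocytes 2 were higher and 1 lower in each NK group, with Cab39, an LKB1 scaffold, higher by 1.80 and 1.82 and the LKB1 partner Stradb lower by -2.39 and -2.70 in resting and IL-15 NK cells.

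Of 20 substrates and effectors of mTOR, 5 rose and 3 fell after IL-15, with a median of -0.24, where 26.3% of all genes passed. Eif4e, the cap-binding translation factor that 4E-BP proteins hold back, rose 3.47-fold (limma adjusted p = 0.00018), and Lpin1, a phosphatidate phosphatase that mTORC1 keeps out of the nucleus, fell 3.22-fold (limma adjusted p = 0.00022). Against splenocytes 3 were higher and 4 lower in resting NK, and 5 higher and 4 lower in IL-15 NK cells. Of all genes, 38.6% and 44.3% passed in these comparisons. Lpin1 was 6.20-fold higher in resting NK cells than in splenocytes and the sterol regulator gene Srebf2 was lower by -1.95, while in IL-15 NK cells Eef2k, the kinase of elongation factor 2, was higher by 1.39 and Ulk1, a kinase that starts autophagy, lower by -2.08.

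**Figure D4:**
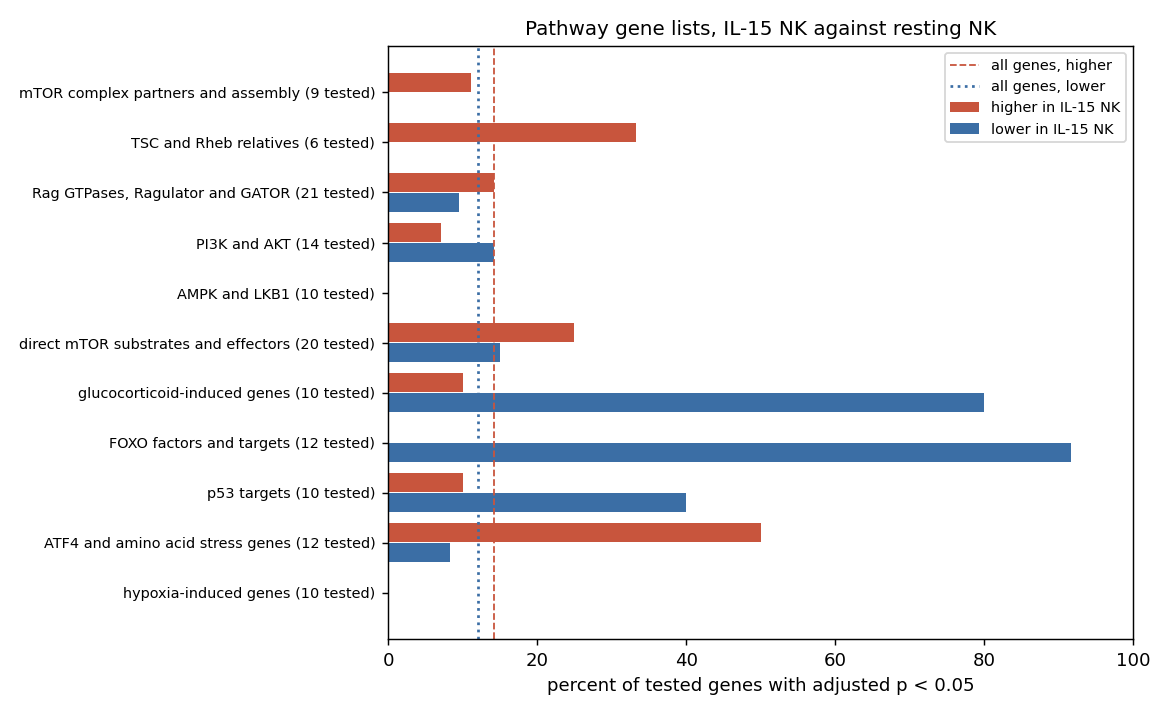
Percent of tested genes (x axis) in 11 pathway lists that rose (red) or fell (blue) after IL-15 at an adjusted p under 0.05, with dashed and dotted lines at the shares of all genes, 14.2% higher and 12.1% lower. The lists leave out the 10 genes, and the blue bars of the FOXO and glucocorticoid lists stand for 11 of 12 and 8 of 10 genes.

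Lists of genes that share known inducers with the stress inhibitors differed widely after IL-15. Of 12 FOXO factors and targets, 11 fell and 0 rose, at a median of -1.36, where 12.1% of all genes fell. Foxo1 fell by 1.36, Foxo3 by 1.23 and Foxo4 by 1.25, and the targets Klf2, which sustains lymphocyte egress, and Il7r, the IL-7 receptor, by 3.45 and 2.93. Of 10 other genes in the glucocorticoid list, 8 fell and 1 rose, with a median of -1.12. The list holds glucocorticoid-induced genes and also the receptor gene Nr3c1, which is counted among those that fell. Cxcr4, a chemokine receptor, fell by 2.45, the glucocorticoid receptor gene Nr3c1 by 0.76 (limma adjusted p = 0.012), and Fkbp5, a chaperone of that receptor, rose by 1.07 (limma adjusted p = 0.0063). Il7r stands in both of these lists. In the same comparison the summed signal of the B-cell markers went from 12126 to 60894 units in resting NK to 4810 to 6511 in IL-15 NK cells, and the part of those cells in these lists was not tested.

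Of 10 p53 targets, 4 fell and 1 rose, with a median of -0.48, where 12.1% of all genes fell and 14.2% rose. The gene that rose was Cdkn1a, an inhibitor of cyclin-dependent kinases (2.27, limma adjusted p = 0.0018), and Pmaip1, which promotes apoptosis, fell by 1.51. Of 12 ATF4 and amino acid stress genes, 6 rose and 1 fell, with a median of 1.23. Psat1, a serine synthesis enzyme, rose 8.31-fold and the amino acid transporter gene Slc7a5, above the floor on 2 of 3 resting arrays, at least 24.3-fold. Of 10 genes in the hypoxia list 0 passed after IL-15 in limma and 2 had an unadjusted p under 0.05, where 37.8% of all genes had such a p. Their median was 0.34. The list holds hypoxia-induced genes and also Hif1a, the gene of the hypoxia-inducible factor itself, which stands in the list of mTOR substrates too. Hif1a, the brightest, differed by 0.31 (limma adjusted p = 0.20).

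Against splenocytes, 5 of 12 FOXO factors and targets were lower in resting NK and 11 of 12 in IL-15 NK cells, with medians of -0.66 and -2.40 and none higher. For this and the next 4 lists, the share of all genes that passed was 38.6% in resting NK, 17.1% higher and 21.5% lower. In IL-15 NK cells it was 44.3%, 20.8% higher and 23.5% lower. S1pr1, an egress receptor, was lower by -2.18 and -3.65 in resting and IL-15 NK cells, Cdkn1b, an inhibitor of cyclin-dependent kinases, by -1.62 in resting NK and Il7r by -3.78 in IL-15 NK cells. Of the glucocorticoid list 3 genes were higher and 2 lower in resting NK, among them Klf9, a transcription factor, by 2.30 and Cxcr4 by -2.51. In IL-15 NK cells 0 were higher and 4 lower, with Cxcr4 at -4.96. Of the p53 targets 4 were higher and 2 lower in resting NK and 4 higher and 3 lower in IL-15 NK cells, where Cdkn1a was 8.21-fold higher and Pmaip1 5.63-fold lower, and Btg2, an antiproliferative gene, was lower in resting NK by -1.30. Of 13 ATF4 and amino acid stress genes 1 was higher and 5 lower in resting NK and 5 higher and 1 lower in IL-15 NK cells. Asns, asparagine synthetase, above the floor on 1 of 3 resting arrays, was at least 9.03-fold lower in resting NK cells, as was Slc7a5, at least 9.42-fold. Psat1 and the mitochondrial folate enzyme gene Mthfd2 were 6.03-fold and 4.46-fold higher in IL-15 NK cells. Of 9 tested genes of the hypoxia list 1 was higher and 1 lower in resting NK and 1 higher in IL-15 NK cells. The oxygen sensor gene Egln1 was higher by 1.09 and 1.71, and Ankrd37 was lower by -2.57 in resting NK cells.

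The genes whose log2 signals followed those of the stress inhibitors most closely over the 10 arrays were found by Pearson correlation among 12573 genes. The arrays share 3 groups and 2 labelling procedures, so these values describe a common pattern over groups. For Tsc22d3 they were Ranbp10, Abcg3 and Sh3pxd2a (r = 0.997, 0.997 and 0.994), and for Sesn1 they were Zfp157, Pi4kb and Phf11d (r = 0.992, 0.981 and 0.976). For Ddit4 they were Fahd1, Chac2 and Prdx2 (r = 0.986, 0.984 and 0.980), and over the 6 NK arrays alone these 3 correlated at 0.681, 0.724 and 0.680. For Sesn3 they were Alpk3, Ldhd and Tshr (r = 0.926, 0.890 and 0.885), which lay above the floor on 5 to 6 of the 10 arrays. Over the 6 NK arrays, which hold 2 groups, the genes named for Tsc22d3 correlated at 0.985, 0.996 and 0.955. Those for Sesn1 did so at 0.996, 0.986 and 0.982, and those for Sesn3 at 0.899, 0.944 and 0.957. Fahd1 lay above the floor on 6 of the 10 arrays, and Abcg3 and Sh3pxd2a on 8 each.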

How the data were processed

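Gene expression was measured on 10 one-colour arrays. The deposited table gives a linear intensity for each probe set on each array, and the submitters' processing notes name GCOS 1.4, without the probe summary used or the value scaled to. Amplification was 2-cycle for NK and 1-cycle for splenocyte samples, per the labels' protocols. The deposited intensities had an equal trimmed mean on every array and were used as given, so changes in RNA content per cell cannot be seen.

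The floor, 179.85 units, was the median over arrays of each array's 40th percentile. Apart from 64 control probe sets, the platform annotation named 1 gene for 34945 probe sets, several for 932 and none for 9160. Symbols were checked through Entrez ID in the RefSeq table of GRCm38.p6, which matched 34741 of the 34945, and 0 changed. The brightest probe set by mean log2 signal stood for a gene, which was tested where at least 3 arrays of the groups compared lay above the floor. All 10 genes passed this filter in every comparison. Folds are ratios of geometric means, and are given as at least N-fold where an array of the dimmer group was at the floor.

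Tests used lmFit and eBayes of limma 3.58.1 (R 4.3.3) with a trend on intensity. They were 2-sided, with p-values adjusted by Benjamini-Hochberg over all genes or, where said, over all probe sets, at a threshold of 0.05. IL-15 NK and resting NK were compared over their 6 arrays without a block. Comparisons with splenocytes used all 3 groups with the chips averaged in pairs. The labels do not say which chips belong together, so the largest p of the 3 possible pairings was kept, with its SE and interval. The labels do not say whether the NK replicates came from separate mice beyond calling them biological replicates. The fits were tested on simulated data.

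The 10 genes, the gene lists and the tests were chosen with earlier results of these data known. Named genes are the 10, up to 2 called members of each list per comparison with the largest differences (the brightest tested member where none was called), and for 4 stress inhibitors the 3 most correlated genes. Foxo1, Foxo3, Foxo4, Nr3c1, Fkbp5 and Mlst8 were added after their values were seen. So were the values against splenocytes of Akt1s1 in IL-15 NK and Deptor in resting NK cells. Alternatives were another scaling, floor, filter and probe set rule, a replicate block, separate chips and leaving out arrays. Promoter windows are RefSeq's, and the table held all 10 genes. Proteins were not analysed here.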

Additional observations from a re-analysis of the deposited data

Results flagged for a closer look

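Among the 26 probe sets of the 10 genes whose 4 splenocyte chips were not all at the floor, 3 had a chip far from the other 3, by a gap above Dixon's 95% critical value for its share of the group's range on the log2 scale. For 4 independent values without a floor, chance gives such a gap in about 1 in 20 groups. That rate need not hold here, as the 4 chips are 2 biological samples and low signals were set to the floor. For Sesn3 probe set 1453313_at, splenocyte chip 4 read 4706 units where the others read 12838 to 15304, a gap of 0.851 of the range. For the dim Mtor probe set 1446185_at and Rptor probe set 1458472_at, chip 1 was the only 1 of the 4 above the floor, at 251 and 196 units. The gap was then the whole range (1), a value that any probe set with a single chip above the floor gets.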

How the results depend on the processing

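Over 30 results, each of the 10 genes in each of the 3 comparisons, 460 values under other settings were computed. Of these, 425 kept their direction and their side of the threshold. That count is not a measure of stability, as some settings could not change a direction. With no filter, probe sets singly, a replicate block or separate chips the difference itself stayed the same, and only the adjusted p could move. The call was lost in 11 and gained in 10, and the sign changed in 16, of which 1 also lost and 1 also gained the call. The number of the 10 genes that changed is given with the share of all genes that changed under the same setting. For IL-15 NK against resting NK it was 4 (26.3% of all genes), and 4 with each array left out in turn (17.9% to 29.7%). It was 3 with no filter on low values (Rictor lost, 9.05% of all genes) and 3 with means over probe sets (Tsc1 lost, 23.9%). For resting NK against splenocytes it was 3 (38.6%), and 3 to 4 with arrays left out (35.7% to 41.2%). With means over probe sets it was 5 (35.5%) and with separate chips 5 (49.1%). For IL-15 NK against splenocytes it was 7 (44.3%), and 5 to 7 with arrays left out (37.8% to 43.5%). After quantile normalization it was 5 (42.3%), with no filter 5 (24.9%) and with means over probe sets 6 (41.6%). Of all genes, 3003 of 11433 tested changed after IL-15, with 1963 to 3241 when an array was left out (1963 without IL-15 NK replicate 3). With no filter 1646 of 18193 changed (9.05%). Tested singly, 5004 of 20980 probe sets changed after IL-15 (23.9%). Against splenocytes 9129 of 23940 probe sets changed in resting NK (38.1%) and 9797 of 23116 in IL-15 NK cells (42.4%).

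The sign changed mostly for differences near 0. After IL-15 Rptor was 0.42, Tsc2 0.12 and Rheb -0.31 with resting NK replicates 1 and 2 both left out, which was chosen after seeing the data, and Rptor ranged from -0.44 to 0.013 with 1 array left out. For resting NK against splenocytes Rptor was -0.45 without both and -0.044 to 0.41 with 1 left out, and Sesn3 was -0.052 after quantile normalization, -0.83 as a mean over probe sets and -0.043 to 0.15 with 1 left out. For IL-15 NK against splenocytes Rptor was 0.21 after quantile normalization, 0.077 as a mean and -0.065 to 0.030 with 1 left out, Mtor was -0.33 as a mean and -0.0066 to 0.12 with 1 left out, and Rictor was -0.11 as a mean. The cause was not tested.

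The series' design text speaks of 3 pairs of NK samples and does not say which arrays form a pair. With the replicate number as a replicate block, 4 of the 10 genes and 3421 of all 11433 genes tested (29.9%) changed after IL-15. The deviations of same-numbered arrays from their group means correlated at 0.103, 0.281 and 0.0665, and those of differently numbered arrays at -0.222 to 0.154. The highest of the latter was that of resting NK replicate 3 with IL-15 NK replicate 1. These values do not settle which arrays form a pair. The main fit used no block, and a pairing other than by number was not tested. Quantile normalization moved the median difference of all genes from -0.057 to 0.052 and from -0.098 to 0.11 against splenocytes. Tsc2 was the dimmest of the brightest probe sets, at 233 units on IL-15 NK replicate 1 against a floor of 179.85.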
